A study of Homo sapiens with 8 samples.

Results

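The genes examined are the MYC and MAX network, 10 genes taken by symbol from the deposited counts: MYC, MYCN, MAX, MXD1, MXD3, MXD4, MXI1, MNT, MGA and MLX. They are 10 of the 37526 gene names listed for all 8 libraries of the series. RNA was sequenced from NB4 cells, a line from acute promyelocytic leukemia (APL) that carries the PML/RARα fusion, in 4 groups of 2 replicates. The scramble cells carried a control vector, named an empty vector in the labels and a scrambled shRNA in the methods, and the shKDM3B cells carried an shRNA against the histone demethylase KDM3B, both through a stably integrated lentivirus with puromycin selection. The scramble+ATRA and shKDM3B+ATRA cells also received 1 µM all-trans retinoic acid (ATRA), a dose written as 1 mM in the methods. It was given for 24 or 48 h, the labels not saying which of these times applies to RNA-seq. Which of the KDM3B hairpins was sequenced is not named. The methods state 2 replicates of the RNA-seq experiments but do not say that these came from separate cultures. The P-values therefore measure only the spread between these libraries.

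MYC is a transcription factor that binds DNA at E-boxes (CACGTG) as a dimer with MAX and activates genes of growth, ribosome production and metabolism. The MXD proteins, MXI1, MNT and MGA compete for MAX and repress the same class of sites, the MXD proteins and MXI1 through the SIN3 and HDAC corepressors. MLX forms a parallel arm with the glucose-sensing factors MLXIP and MLXIPL and can also pair with MXD1, MXD4 and MNT. In myeloid cells, MYC is known to decline and MXD1 to rise as precursors mature, and ATRA sets off granulocytic maturation in APL cells.

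The promoter windows of the network were read because these genes encode proteins that bind the E-box. RefSeq promoter windows (GRCh38.p14, 250 bases before to 50 bases after a start site) were found for 9 of the 10 genes, in 14 windows. MYC had no window, so its promoter was not searched. The motif CACGTG, which reads the same on both strands, was present in 3 of the 14 windows, those of MLX, MNT and MXD4, against 7.26% of all 35116 windows. The stretches around these matches that lie outside annotated exons are given below from 5′ to 3′ on the strand of the gene, with the E-box letters in capitals.
MLX, chr17:42567023-42567071, plus strand: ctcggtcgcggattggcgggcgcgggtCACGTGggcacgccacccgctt
MNT, chr17:2401221-2401280, minus strand: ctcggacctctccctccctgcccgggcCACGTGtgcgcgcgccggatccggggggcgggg
MXD4, chr4:2262315-2262359, minus strand: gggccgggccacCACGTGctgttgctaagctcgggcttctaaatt
The first base of the E-box lies at -50 from the start site in MLX, at -193 in MNT and at -238 in MXD4. AGGTCA, the half-site bound by retinoic acid receptors, was searched on both strands and was found in 1 member window, that of MXD3 at -90, against 13.8% of all windows. These matches are letters in a window and not measured binding sites.

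Library depth, as pairs assigned to genes, ran from 9708739 to 33017787. KDM3B had 187 and 188 CPM in the scramble cells, 76.3 and 86.2 in the shKDM3B cells, 196 and 121 in scramble+ATRA and 52.5 and 57.4 in shKDM3B+ATRA, where CPM are TMM-scaled counts relative to library size. The libraries fell on 2 sides in the share of uniquely aligned pairs outside genes. This share was 8.49 to 9.62% in 5 libraries, the 4 untreated ones and scramble+ATRA replicate 1, and 50.02 to 51.45% in the other 3, scramble+ATRA replicate 2 and both of shKDM3B+ATRA. A within-side comparison therefore exists for ATRA in scramble cells (replicate 1 only) and for shKDM3B with ATRA (scramble+ATRA replicate 2 only), while in shKDM3B cells ATRA and the side cannot be told apart. Of the promyelocyte markers, MPO, CTSG and CD33 were expressed in the untreated cells, whereas ELANE, AZU1 and PRTN3 had at most 24 counts in any library. The summed level of the 6 markers was 4452 to 5534 CPM in scramble, 8554 to 9723 in shKDM3B, 707 to 844 in scramble+ATRA and 2323 to 3224 in shKDM3B+ATRA. Most of this sum was MPO, with group means of 4814, 8928, 673 and 2674 CPM, and CD33 and CTSG did not share its order. CD33 had group means of 68.7, 71.1, 99.2 and 95.6 CPM, higher with ATRA, and CTSG 109.8, 137.8, 3.21 and 1.85 CPM, lower in shKDM3B+ATRA than in scramble+ATRA. The 7 granulocytic maturation markers summed to 498.9 to 503.6, 319 to 328, 3596 to 3962 and 1752 to 2108 CPM in the same order. The largest part of this sum was CYBB, with group means of 327, 182, 1917 and 937 CPM. CEBPE was not lower in untreated shKDM3B, with group means of 62.8, 64.3, 381 and 272 CPM, and FPR1 had at most 36 counts in any library. Markers of other lineages summed to at most 26.5 CPM, with HBB, HBG1 and PF4 at 0 counts in every library. These levels moved with several network genes below, and their part in those results was not tested. In these bulk samples, fewer cells of a type and less RNA per cell cannot be told apart.

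With all libraries and unadjusted P-values, more network genes were called with ATRA (4 and 5 of 9) than after silencing of KDM3B (3 and 0 of 9), as were more genes of the whole table. The difference for the network was not tested and did not hold under every alternative given below. The call rule was a change of at least 1.5-fold at an unadjusted P-value below 0.05, and 9 of the 10 genes could be tested. In untreated cells, 3 of the 9 were called, MYC and MXI1 upregulated and MXD3 downregulated in shKDM3B, while 7.01% of all 13855 genes tested were called, 3.48% higher and 3.53% lower. With ATRA, 0 of the 9 were called between shKDM3B and scramble, against 6.79% of 14281 genes, of which 2.42% were higher and 4.37% lower. The unadjusted P-value alone was below 0.05 for 1383 genes, or 9.68%. ATRA in scramble cells called 4 of the 9, with MXD1, MXD3 and MLX upregulated and MYC downregulated, against 25.9% of 12429 genes, 15.0% higher and 10.8% lower. ATRA in shKDM3B cells called 5 of the 9, with MXD1 and MXD3 upregulated and MYC, MXI1 and MGA downregulated, against 42.2% of 12756 genes, 24.0% higher and 18.3% lower. The share called under ATRA in shKDM3B cells was thus close to the share among all genes. After Benjamini-Hochberg adjustment of edgeR's quasi-likelihood test, 0, 0, 1 and 5 of the 9 genes remained called in these comparisons, and 3, 0, 1604 and 5132 of all genes, or 0.0217, 0, 12.9 and 40.2%. The median log2 fold change of the 9 genes was 0.35, 0.037, 0.22 and -0.074 in the same order, beside 0.00022, 0.034, 0.016 and 0.045 over all genes tested.

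**Figure D1:**
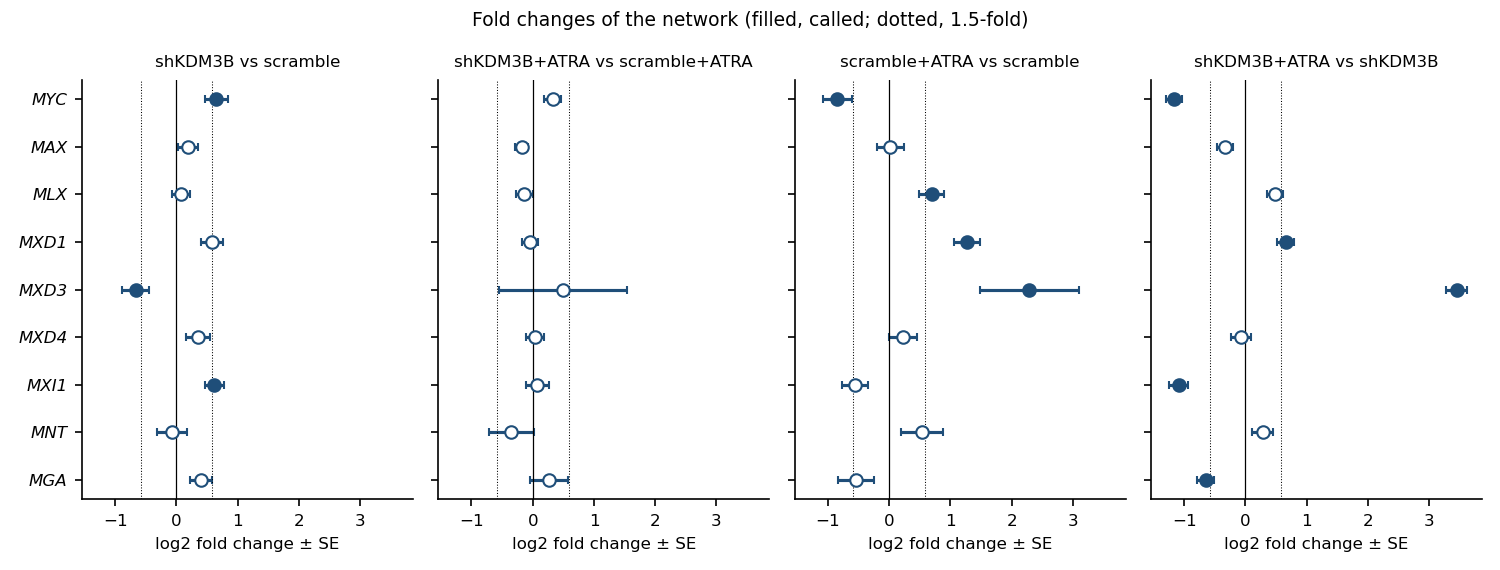
Log2 fold change of the 9 tested network genes (rows) in the 4 comparisons (panels), with bars of 1 standard error from edgeR's quasi-likelihood fit, 2 libraries per group. Filled points were called and dotted lines mark 1.5-fold. MYC lies at 0.65 and 0.33 in the comparisons of shKDM3B with scramble and at -0.85 and -1.17 in those of ATRA, and the bar of MXD3 spans the zero line in shKDM3B+ATRA against scramble+ATRA.

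MYC (ENSG00000136997, chromosome 8 of hg38, 127735434 to 127742951, plus strand) was the most abundant member per length in the untreated scramble cells. In untreated cells it had 452 and 614 CPM in scramble and 766 and 912 in shKDM3B, and with ATRA 264 and 313 in scramble and 375 and 346 in shKDM3B. Each shKDM3B library lay above each scramble library, with and without ATRA, and each ATRA library lay below each untreated one. Against scramble, the log2 fold change in untreated shKDM3B cells was 0.65 (SE 0.18, Benjamini-Hochberg adjusted p = 0.236, edgeR quasi-likelihood test). The call was lost without scramble replicate 1 (0.45) and without shKDM3B replicate 2 (0.51). Under ATRA the same difference was 0.33 (SE 0.14, Benjamini-Hochberg adjusted p = 0.552, edgeR quasi-likelihood test) and was not called, and on the side with many pairs outside genes, without scramble+ATRA replicate 1, it was 0.21.

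With ATRA, MYC fell by 0.85 on the log2 scale in scramble cells (SE 0.24, Benjamini-Hochberg adjusted p = 0.0600, edgeR quasi-likelihood test) and by 1.17 in shKDM3B cells (SE 0.13, adjusted p = 7.5e-05 from the same test). Within the side with few pairs outside genes, without scramble+ATRA replicate 2, the log2 fold change in scramble cells was -1.01. Without scramble replicate 2 the value was -0.63 and the call was lost. The falls were not shown to differ, since their difference, -0.33, had a Benjamini-Hochberg adjusted p of 1.00 in edgeR's quasi-likelihood interaction test. About 3.18% of the exon length of MYC is shared with CASC11 on the opposite strand, and whether counting used the strand is not stated.

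MYCN, the paralog of MYC known from neuroblastoma, had 0 counts in all 8 libraries, which allows at most 0.0920 to 0.316 CPM depending on the library (3 counts, counting error only). The third paralog, MYCL, had at most 17 counts in any library and could not be tested. MYC was thus the one paralog with enough counts to test.

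MAX, the obligate partner of MYC and of the antagonists (ENSG00000125952, chromosome 14, 65006174 to 65102695, minus strand), stayed within a narrow range of 102 to 147 CPM over the 8 libraries. It had 106 and 136 CPM in scramble, 129 and 147 in shKDM3B, 120 and 120 in scramble+ATRA, and 102 and 109 in shKDM3B+ATRA. The groups did not overlap for ATRA in shKDM3B cells, with a log2 fold change of -0.33 (SE 0.13), nor for shKDM3B against scramble under ATRA, with -0.18 (SE 0.11), and neither reached 1.5-fold. In the other comparisons the groups overlapped, with log2 fold changes of 0.19 and 0.02. MAX shares 16.1% of its exon length with genes on the opposite strand, FNTB among them.

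**Figure D2:**
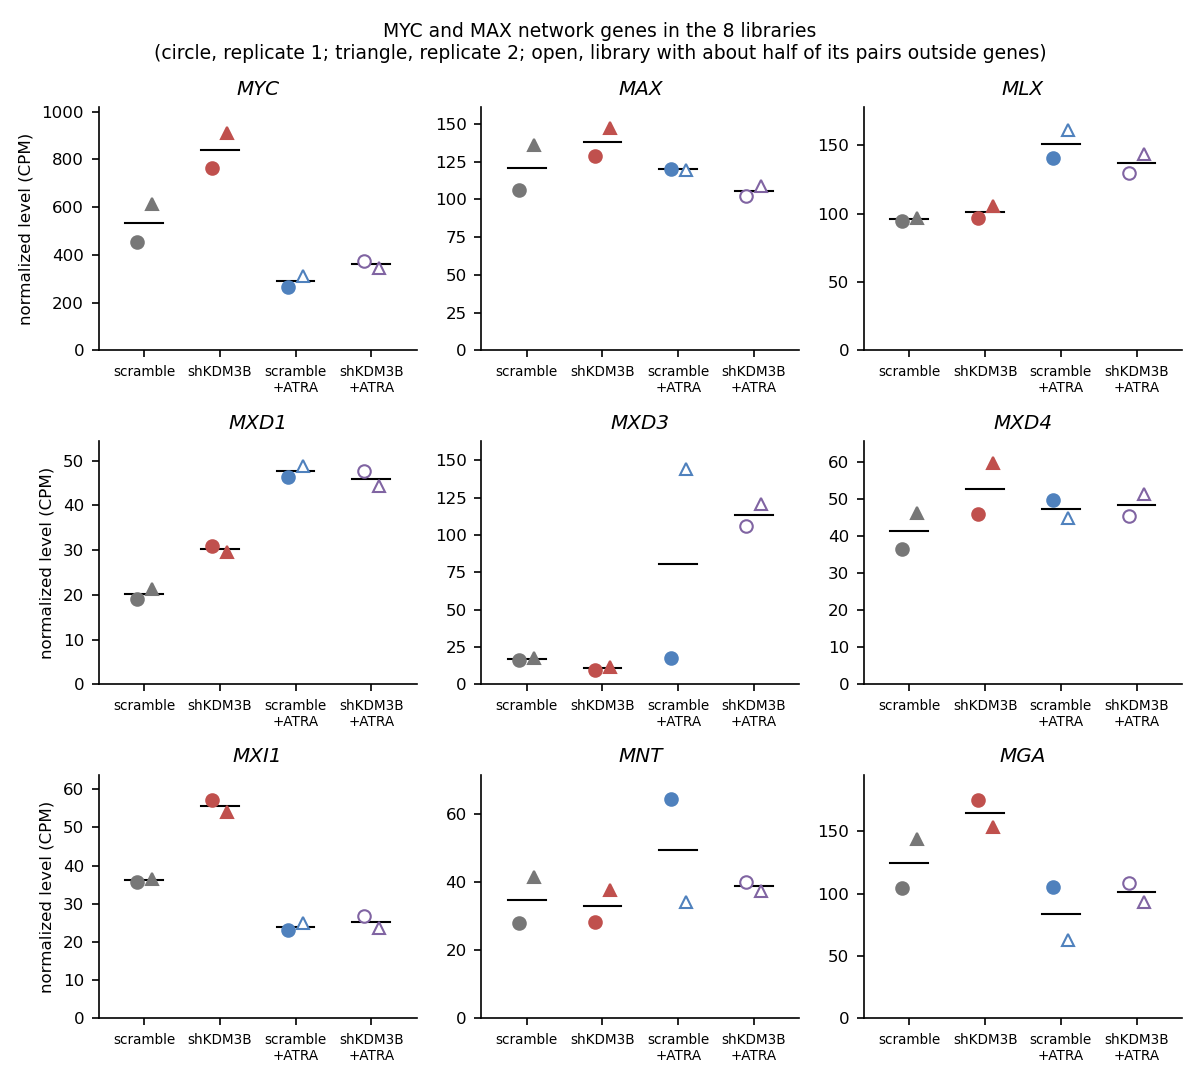
Normalized level (CPM, linear axes from 0) of the 9 expressed network genes in each library, grouped by condition, with the mean of 2 replicates as a line. Open symbols mark the 3 libraries with 50.02 to 51.45% of pairs outside genes. MYC and MXI1 are high in shKDM3B and low with ATRA, MXD1 is high with ATRA, and MXD3 is high in the 3 open libraries alone.

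Per kilobase of the canonical transcript, the untreated scramble cells had 121 and 165 CPM per kilobase of MYC, 52.9 and 67.5 of MAX, and 40.1 and 41.0 of MLX. MXD3 followed with 15.3 and 16.6 CPM per kilobase. MXI1 (10.3 and 10.5), MXD4 (9.468 and 11.98) and MGA (8.60 and 11.8) overlapped one another on this scale. MNT had 5.66 and 8.41, and MXD1 came last with 3.42 and 3.86 CPM per kilobase. MYC thus stood above each antagonist on this scale, and MXI1, MXD4 and MGA could not be ordered beyond the spread of the libraries.

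MXD1, the antagonist classically induced when myeloid cells mature (ENSG00000059728, chromosome 2, 69897688 to 69942945, plus strand), had 19.0 and 21.4 CPM in scramble and 31.0 and 29.6 in shKDM3B. With ATRA it had 46.5 and 48.9 CPM in scramble and 47.6 and 44.4 in shKDM3B. The untreated shKDM3B cells thus lay between the untreated scramble cells and both ATRA groups, and the ATRA groups overlapped. In scramble cells MXD1 rose with ATRA by a log2 fold change of 1.27 (SE 0.22, Benjamini-Hochberg adjusted p = 0.00958, edgeR quasi-likelihood test). Without scramble+ATRA replicate 2, within the side with few pairs outside genes, the value was 1.21, and the call held in all 4 fits that left out a library. In shKDM3B cells the rise was 0.66 (SE 0.14, Benjamini-Hochberg adjusted p = 0.00448 from the same test).

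Silencing of KDM3B without ATRA gave MXD1 a log2 fold change of 0.58 (SE 0.18, Benjamini-Hochberg adjusted p = 0.301, edgeR quasi-likelihood test), just short of 1.5-fold, so that it was not called. It was called with either other low-count filter (0.59 in each), without scramble replicate 2 (0.68) and without shKDM3B replicate 2 (0.61). Under ATRA the difference between shKDM3B and scramble was -0.05 (SE 0.13). No exon of MXD1 overlaps a gene on the opposite strand.

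MXI1, a MAX-binding repressor also known as MXD2 (ENSG00000119950, chromosome 10, 110207605 to 110287365, plus strand), moved in the opposite direction to MXD1 under ATRA. Its levels were 35.8 and 36.5 CPM in scramble, 57.3 and 54.0 in shKDM3B, 23.2 and 24.9 in scramble+ATRA, and 26.8 and 23.6 in shKDM3B+ATRA. The shKDM3B libraries lay above all others, and the ATRA libraries lay below all untreated ones. It was upregulated in untreated shKDM3B cells, by a log2 fold change of 0.62 (SE 0.16, Benjamini-Hochberg adjusted p = 0.203, edgeR quasi-likelihood test). This call was lost with upper-quartile scaling (0.57) and without shKDM3B replicate 1 (0.58). With ATRA, MXI1 fell by 1.09 on the log2 scale in shKDM3B cells (SE 0.15, Benjamini-Hochberg adjusted p = 2.9e-04, edgeR quasi-likelihood test). In scramble cells the log2 fold change was -0.55 (SE 0.21, Benjamini-Hochberg adjusted p = 0.143, edgeR quasi-likelihood test), short of 1.5-fold, and -0.63 without scramble+ATRA replicate 2, where it was called. The 11 alternatives that kept all libraries gave -0.65 to -0.55, and 4 of them called it.

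MXD4, another MAX-binding repressor (ENSG00000123933, chromosome 4, 2247432 to 2262109, minus strand) with an E-box in its promoter window, was not called in any comparison. It had 36.7 and 46.4 CPM in scramble, 46.0 and 59.7 in shKDM3B, 49.8 and 44.9 in scramble+ATRA, and 45.5 and 51.4 in shKDM3B+ATRA. Its log2 fold changes lay between -0.07 and 0.35, and the groups overlapped in all 4 comparisons.

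MXD3, a MAX-binding repressor expressed in dividing cells (ENSG00000213347, chromosome 5, 177301461 to 177312757, minus strand), had 16.3 and 17.7 CPM in scramble and 9.56 and 11.8 in shKDM3B. It was downregulated in untreated shKDM3B cells, by a log2 fold change of -0.66 (SE 0.22, Benjamini-Hochberg adjusted p = 0.323, edgeR quasi-likelihood test), and the call was lost without shKDM3B replicate 1 (-0.52) and in a fit over all 8 libraries (-0.66). With ATRA it had 17.6 and 144 CPM in scramble and 106 and 121 in shKDM3B. The 2 scramble+ATRA libraries differed 8.20-fold, a ratio above that of 97.3% of genes, and replicate 1 lay inside the range of the untreated scramble cells.

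All of the high MXD3 values came from the libraries with 50.02 to 51.45% of pairs outside genes, which had 106 to 144 CPM, whereas the other 5 had 9.56 to 17.7. The log2 fold change with ATRA in scramble cells was 2.29 with both libraries (SE 0.82, Benjamini-Hochberg adjusted p = 0.120, edgeR quasi-likelihood test), 0.06 without scramble+ATRA replicate 2 and 3.12 without replicate 1. The call was also lost with DESeq2 and when either scramble library was left out. In shKDM3B cells the log2 fold change with ATRA was 3.45 (SE 0.17, Benjamini-Hochberg adjusted p = 3.8e-07, edgeR quasi-likelihood test), and there the ATRA libraries and the side are the same libraries. Between shKDM3B and scramble under ATRA it was 0.50 (SE 1.04), -0.34 within the side and 2.69 without scramble+ATRA replicate 2. Of the exon length of MXD3, 24.2% is shared with PRELID1 on the opposite strand and 19.5% with RAB24 on the same strand. PRELID1 had 262 CPM in scramble+ATRA replicate 1 and 170 in replicate 2, against 122 and 136 in shKDM3B+ATRA and 226 to 298 in the untreated cells. RAB24 had at most 4.49 CPM in any library. Whether the counting of overlapping exons has a part in the MXD3 levels was not tested.

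MNT, the broadly expressed antagonist of MYC (ENSG00000070444, chromosome 17, 2384073 to 2401104, minus strand), had 27.9 and 41.4 CPM in scramble, 28.1 and 37.7 in shKDM3B, 64.2 and 34.2 in scramble+ATRA, and 39.9 and 37.4 in shKDM3B+ATRA. One library, scramble+ATRA replicate 1, lay above the rest, and with all libraries MNT was not called in any comparison. The log2 fold change with ATRA in scramble cells was 0.54 with both libraries, 0.90 without scramble+ATRA replicate 2, where it was called, and 0.02 without replicate 1. Between shKDM3B and scramble under ATRA it was -0.35, 0.19 within the side, and -0.73 without scramble+ATRA replicate 2, where it was called.

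MGA, a large protein with a MAX-binding domain and a T-box that belongs to a Polycomb complex (ENSG00000174197, chromosome 15, 41621134 to 41773081, plus strand), had 105 and 144 CPM in scramble and 175 and 154 in shKDM3B. With ATRA it had 105 and 62.5 CPM in scramble and 108 and 93.5 in shKDM3B. It fell by 0.65 on the log2 scale with ATRA in shKDM3B cells (SE 0.13, Benjamini-Hochberg adjusted p = 0.00323, edgeR quasi-likelihood test), a call lost without shKDM3B+ATRA replicate 2 (-0.55). In scramble cells it had -0.54 (SE 0.30), with -0.23 without scramble+ATRA replicate 2 and -0.96 without replicate 1, where it was called. Silencing of KDM3B gave 0.40 (SE 0.18) without ATRA, where the groups did not overlap, and 0.27 with ATRA, or 0.70 within the side, where it was called.

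MLX, the partner of the glucose-sensing arm (ENSG00000108788, chromosome 17, 42567072 to 42573239, plus strand), had 94.6 and 96.7 CPM in scramble and 96.6 and 106 in shKDM3B. With ATRA it had 141 and 161 CPM in scramble and 130 and 144 in shKDM3B, each ATRA library lying above each untreated one. In scramble cells it rose with ATRA by a log2 fold change of 0.69 (SE 0.20, Benjamini-Hochberg adjusted p = 0.0693, edgeR quasi-likelihood test), a call lost when either scramble library (0.65 and 0.70) or scramble+ATRA replicate 2 (0.56) was left out. In shKDM3B cells the value was 0.49 (SE 0.13, Benjamini-Hochberg adjusted p = 0.0111, edgeR quasi-likelihood test), under 1.5-fold. Silencing of KDM3B gave 0.08 without and -0.14 with ATRA. MLX shares 18.2% of its exon length with PSMC3IP on the opposite strand.

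Of the other genes of the network, MLXIP, the partner of MLX that senses glucose in most cells, had 99.1 to 156 CPM and was not called. MLXIPL, its counterpart in liver and fat, had 3 and 2 counts in scramble and 25 and 24 in scramble+ATRA. The ratio of these levels was 15.8 (95% exact interval 6.32 to 50.8, counting error only), and the gene was called, with a Benjamini-Hochberg adjusted p of 0.00960 in edgeR's quasi-likelihood test. In shKDM3B cells its counts were 2 and 1 without and 5 and 10 with ATRA, a ratio of 13.4 (3.79 to 72.1), and it did not pass the low-count filter there. Under ATRA both shKDM3B libraries lay below both scramble libraries, with a log2 fold change of -1.27 (SE 0.59) that was not called, -1.50 within the side, where it was called, and -0.98 without scramble+ATRA replicate 2.

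Of the targets of the MLX arm, ARRDC4, an arrestin-like inhibitor of glucose uptake, had 8.74 and 7.55 CPM in scramble, 14.5 and 10.2 in shKDM3B, 2.57 and 2.58 in scramble+ATRA, and 5.69 and 4.82 in shKDM3B+ATRA. It fell with ATRA by 1.62 on the log2 scale in scramble cells (Benjamini-Hochberg adjusted p = 0.0278, edgeR quasi-likelihood test) and by 1.18 in shKDM3B cells (adjusted p = 0.00542, same test). It was higher in shKDM3B than in scramble, by a log2 fold change of 0.60 (SE 0.26) without ATRA and 1.03 (SE 0.32) with ATRA, calls that did not hold after Benjamini-Hochberg adjustment of edgeR's quasi-likelihood test (adjusted p = 0.484 and 0.504). Among the 6 other network genes this was the only one called between shKDM3B and scramble in both states. TXNIP, the best known target of the MLX arm, had 121 and 132 CPM in scramble, 161 and 163 in shKDM3B, 151 and 207 in scramble+ATRA, and 215 and 229 in shKDM3B+ATRA. Its log2 fold changes lay between 0.32 and 0.54 in the 4 comparisons, all short of 1.5-fold with all libraries. With ATRA in scramble cells TXNIP had 0.75 without scramble+ATRA replicate 1, where it was called, and 0.26 without replicate 2, and between shKDM3B and scramble under ATRA it had 0.11 within the side. ZBTB17, the partner through which MYC represses genes, fell with ATRA in shKDM3B cells by 0.67 on the log2 scale and was not called elsewhere with all libraries. Between shKDM3B and scramble under ATRA it had -0.82 without scramble+ATRA replicate 2, where it was called, and -0.12 within the side.

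For each comparison, the groups of 2 libraries did not overlap in 5 of 9 network genes for shKDM3B against scramble, beside 39.1% of all 13528 genes, and in 2 of 9 with ATRA, beside 48.8%. They did not overlap in 4 of 9 for ATRA in scramble cells, beside 55.2%, and in 7 of 9 for ATRA in shKDM3B cells, beside 75.9%. With 2 libraries per group, an exact permutation test of a single gene cannot give a two-sided p below 0.333.

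Whether the response to ATRA differed between shKDM3B and scramble cells was tested with an interaction term fitted to the 8 libraries. Both shKDM3B+ATRA libraries, but of scramble+ATRA only replicate 2, lay on the side with many pairs outside genes. The interaction and the side therefore cannot be fully told apart. Of the 9 genes, 1 was called, MXD1, with a smaller value in shKDM3B cells, against 3.99% of 13528 genes, 1.27% with a higher and 2.72% with a lower value. After Benjamini-Hochberg adjustment of edgeR's quasi-likelihood test 0 genes of the whole table were called, 607 (4.49%) having an unadjusted P-value below 0.05. The response of MXD1 was smaller in shKDM3B cells by 0.64 on the log2 scale, an interaction of -0.64 (SE 0.19, Benjamini-Hochberg adjusted p = 1.00, edgeR quasi-likelihood test). It was not called without scramble replicate 1 (-0.55), without shKDM3B+ATRA replicate 2 (-0.59) or with scaling to library size alone (-0.56). Its levels after ATRA overlapped between the cells, and its levels before ATRA did not. MXI1 had an interaction of -0.55 (SE 0.20, adjusted p = 1.00 in the same test), its fall with ATRA being the larger in shKDM3B cells. It did not reach 1.5-fold with all libraries, and it ranged from -0.61 to -0.47 over the fits that left out a library. For MXI1 too the levels after ATRA overlapped, at 23.2 to 26.8 CPM, while the levels before ATRA were higher in shKDM3B.

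The balance of antagonist to MYC was computed within each library as a ratio of CPM per kilobase, which does not depend on library size. The ratio of MXD1 to MYC was 0.0282 and 0.0234 in scramble, 0.0271 and 0.0218 in shKDM3B, 0.118 and 0.105 in scramble+ATRA, and 0.0852 and 0.0861 in shKDM3B+ATRA. It was 4.32-fold higher with ATRA in scramble cells and 3.50-fold higher in shKDM3B cells, with no overlap of libraries in either case. Without ATRA the shKDM3B and scramble cells overlapped in this ratio, both genes standing higher in shKDM3B, and with ATRA the shKDM3B value was 0.769 of the scramble value, without overlap.

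The ratio of MYC to MAX was 2.37 ± 0.106 in scramble, 3.28 ± 0.100 in shKDM3B, 1.30 ± 0.160 in scramble+ATRA and 1.85 ± 0.189 in shKDM3B+ATRA (mean ± SD, n = 2 each). The summed level of the antagonists other than MXD3 relative to MYC was 0.295 ± 0.0184 in scramble, 0.247 ± 0.0224 in shKDM3B, 0.585 ± 0.160 in scramble+ATRA and 0.457 ± 0.0135 in shKDM3B+ATRA (mean ± SD, n = 2 each). With MXD3 included, the sum over all 6 antagonists gave 0.408, 0.291, 1.51 and 1.56. In scramble+ATRA it was then 0.931 in replicate 1 and 2.08 in replicate 2, beside 0.699 and 0.472 without MXD3, and the ATRA groups overlapped. This sum depends on the length given to MXD3, whose canonical transcript has 1067 bases and whose exons together cover 4743. As a ratio of CPM without length, the sum over all 6 antagonists to MYC was 0.516, 0.417, 1.16 and 1.04 in the same order. The fold with ATRA was 3.69 in scramble and 5.35 in shKDM3B cells per kilobase, but 2.24 and 2.48 on the CPM scale, where shKDM3B+ATRA lay below scramble+ATRA without overlap. Without MXD3 the ATRA groups overlapped on the CPM scale, with 1.09 and 0.689 in scramble+ATRA and 0.716 and 0.724 in shKDM3B+ATRA, so that within the side shKDM3B+ATRA was the higher.

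**Figure D3:**
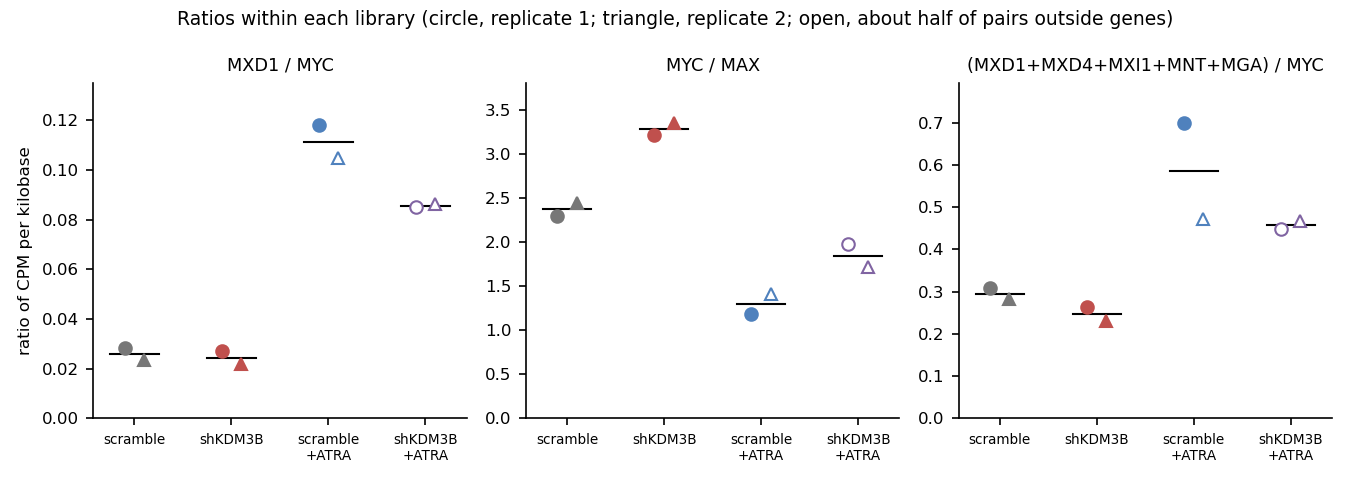
Ratios of CPM per kilobase within each library for MXD1 to MYC, MYC to MAX, and the sum of 5 antagonists without MXD3 to MYC, with the mean of 2 replicates as a line. Open symbols mark libraries with 50.02 to 51.45% of pairs outside genes. MXD1 to MYC is 0.0218 to 0.0282 in both untreated groups and 0.0852 to 0.118 with ATRA, and MYC to MAX is higher in shKDM3B than in scramble in each state.

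Genes known to be activated by MYC were taken as a list of 32 with nucleolar, nucleotide synthesis and metabolic genes. In untreated shKDM3B against scramble, 2 of the 32 (6.25%) were called, both upregulated, beside 7.01% of all genes, with a median log2 fold change of -0.03. These were LDHA, the lactate dehydrogenase subunit, at 0.68 (SE 0.15) and TERT, the catalytic subunit of telomerase, at 0.87 (SE 0.33). LDHA had 1137 and 1396 CPM in scramble and 1923 and 2123 in shKDM3B. With ATRA, 0 of 31 were called between shKDM3B and scramble, with a median of -0.11, beside 6.79% of all genes. Within the side 2 were higher and 1 lower, beside 8.78 and 8.19% of all genes, and without scramble+ATRA replicate 2, 1 was higher and 5 lower, beside 23.2 and 13.3%.

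Under ATRA more of these genes were called, all of them lower in both ATRA comparisons. In scramble cells 15 of 32 fell and 0 rose, with a median log2 fold change of -0.65, beside a fall in 10.8% of all genes. After Benjamini-Hochberg adjustment of edgeR's quasi-likelihood test 4 of the 15 remained called. Without scramble+ATRA replicate 2, 8 of 32 fell, with a median of -0.47, beside 11.7% of all genes in that fit, and without replicate 1, 18 fell and 1 rose, beside 17.0% lower and 21.4% higher of all genes. SLC7A5, the leucine transporter subunit, had 419 and 612 CPM in scramble and 110 and 76.2 in scramble+ATRA, a log2 fold change of -2.44 (SE 0.29). TERT had 5.87 and 11.4 CPM in scramble and 0.797 and 0.277 in scramble+ATRA, a log2 fold change of -3.90 (SE 0.61).

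In shKDM3B cells 19 of 32 fell with ATRA and 0 rose, with a median of -0.72, beside a fall in 18.3% of all genes. TERT went from 854 counts over the untreated libraries to 2 over the ATRA libraries, a ratio of 159.5 (95% exact interval 44.02 to 1319, counting error only). NME1, a nucleoside diphosphate kinase, had 47.3 and 52.9 CPM without and 9.06 and 7.54 with ATRA, a log2 fold change of -2.54 (SE 0.18). In scramble+ATRA, NME1 had 40.5 CPM in replicate 1 and 13.9 in replicate 2, so its level moved with the side, and it shares 18.7% of its exon length with the NME1-NME2 readthrough gene. The interaction called 3 of the 32, all negative, TERT and NME1 among them, beside 2.72% of all genes with a lower value. After Benjamini-Hochberg adjustment of edgeR's quasi-likelihood test 0 of these remained called, as 0 of all genes did.

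**Figure D4:**
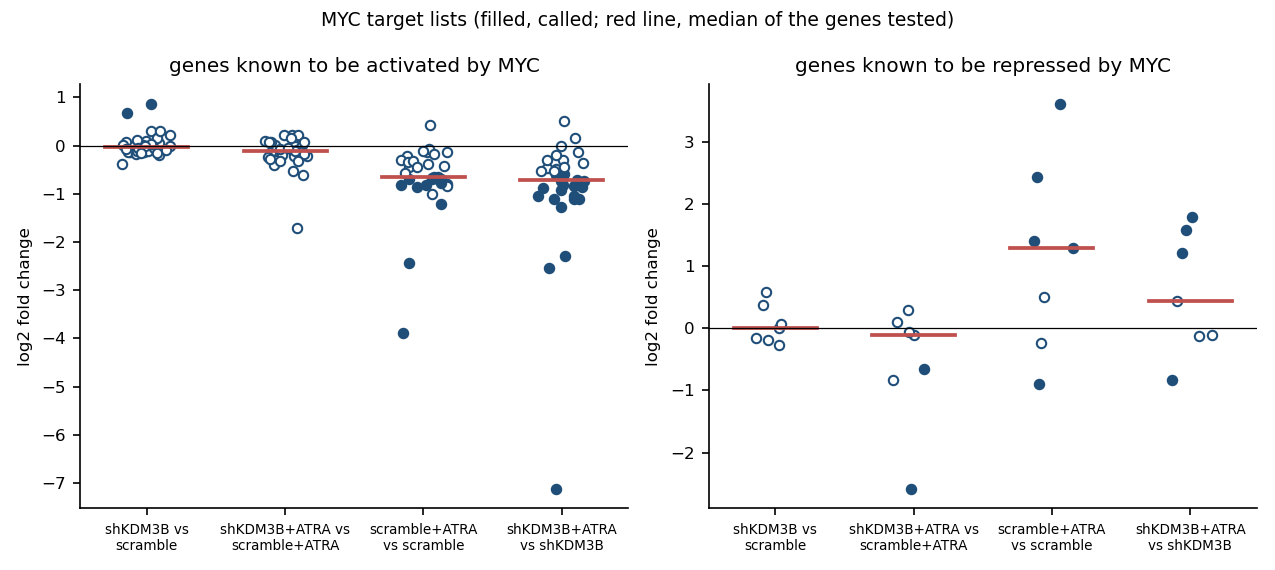
Log2 fold change of each tested gene of the lists known to be activated (left, 32 genes, 31 of them tested in the second comparison) and repressed (right, 7 genes tested) by MYC in the 4 comparisons, with called genes filled and the median as a red line. The medians of the activated list lie at -0.03 and -0.11 between shKDM3B and scramble and at -0.65 and -0.72 with ATRA. The lowest point, TERT in shKDM3B cells, rests on 2 counts in the ATRA libraries.

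Of 8 genes known to be repressed by MYC, 7 could be tested. In untreated cells 0 of them were called between shKDM3B and scramble, beside 7.01% of all genes. In scramble cells 4 rose with ATRA and 1 fell, beside 15.0% higher and 10.8% lower of all genes, with a median log2 fold change of 1.29. CDKN1A, the p21 inhibitor of the cell cycle, had 0.552 and 0.629 CPM in scramble and 6.93 and 7.38 in scramble+ATRA, a log2 fold change of 3.61 (SE 0.42). GADD45A, a growth arrest gene, rose by 2.44 (SE 0.29), and CEBPA, a factor of early myeloid cells, fell by 0.89 on the log2 scale. Without scramble+ATRA replicate 2 the counts were also 4 and 1, beside 12.9 and 11.7% of all genes, and without replicate 1 they were 5 and 1, beside 21.4 and 17.0%. In shKDM3B cells 3 rose and 1 fell, beside 24.0% higher and 18.3% lower of all genes, with a median of 0.43, led by GADD45A at 1.79 and DDIT3, a stress response factor, at 1.59, with CEBPA at -0.83. CEBPA shares 43.9% and DDIT3 31.6% of their exon length with genes on the opposite strand, so their counts are uncertain if strand was not used. CDKN1A had 0.948 and 1.41 CPM in shKDM3B+ATRA and was lower there than in scramble+ATRA by a log2 fold change of -2.59 (SE 0.38), with -2.62 within the side. Its counts were few, at most 15 in scramble, 21 in shKDM3B, 113 in scramble+ATRA and 14 in shKDM3B+ATRA. GADD45A was lower by -0.66, and these 2 were the genes of the list called in that comparison, beside 6.79% of all genes. Within the side and without scramble+ATRA replicate 2, 3 of the 7 were called lower, beside 8.19 and 13.3% of all genes, with NDRG1 added at -0.65 and -0.98. The interaction for CDKN1A was -2.39 (SE 0.61, Benjamini-Hochberg adjusted p = 1.00, edgeR quasi-likelihood test).

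Of 13 cofactors of MYC, 0 were called between untreated shKDM3B and scramble (median 0.0072), beside 7.01% of all genes. With ATRA 1 was (median -0.15), beside 6.79%, the elongation kinase CDK9 at -0.78, with -0.72 within the side. The median of the list was 0.099 within the side and -0.42 without scramble+ATRA replicate 2, so its sign moved with the library left out. With ATRA 1 fell in scramble cells, the helicase RUVBL2 at -0.60 (median of the list -0.37), and 5 in shKDM3B cells (median -0.54), led by the acetyltransferase scaffold TRRAP at -0.95 and RUVBL2 at -0.83. Without scramble+ATRA replicate 2, 0 of the 13 were called in scramble cells, beside 24.7% of all genes in that fit, and without replicate 1, 6 were (46.2%), beside 38.4%. With all libraries the share called, 7.69% in scramble and 38.5% in shKDM3B cells, stood beside 25.9 and 42.2% of all genes. TRRAP had 195 CPM in scramble+ATRA replicate 1 and 82.4 in replicate 2.

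Of 8 subunits of the SIN3 and NCOR corepressors, 0 were called between shKDM3B and scramble without (median log2 fold change 0.033) or with ATRA (0.017), beside 7.01 and 6.79% of all genes. SAP30 and SIN3A, a linker and the scaffold of the complex, fell with ATRA in scramble cells (-1.58 and -0.72) and in shKDM3B cells (-2.09 and -0.71). HDAC1, its deacetylase, rose in shKDM3B cells by 0.89. With ATRA 2 of the 8 were called in scramble cells and 37.5% in shKDM3B cells, beside 25.9 and 42.2% of all genes. The median of the list was -0.054 with ATRA in scramble cells and -0.18 in shKDM3B cells. SAP30 fell also without scramble+ATRA replicate 2 (-1.52), whereas SIN3A (-0.58) was then not called and SIN3B (0.71) was called higher. Between shKDM3B and scramble under ATRA, NCOR1 was called within the side (0.59) and SIN3B without scramble+ATRA replicate 2 (-0.88). Of 10 genes of MYC protein turnover, 0 were called between shKDM3B and scramble without (median 0.087) or with ATRA (0.12), beside the same 7.01 and 6.79% of all genes. USP36, a nucleolar deubiquitinase that stabilizes MYC, fell with ATRA by 0.88 on the log2 scale in scramble cells and by 1.15 in shKDM3B cells, where 3 genes of the list fell, among them the ubiquitin ligase HUWE1 (-0.88). Without scramble+ATRA replicate 2, USP36 (-0.55) was not called in scramble cells. HUWE1 had 507 CPM in scramble+ATRA replicate 1 and 241 in replicate 2, so its level moved with the side. Its log2 fold change with ATRA in scramble cells was -0.065 without replicate 2 and -1.11 without replicate 1. With ATRA 1 of the 10 was called in scramble cells and 3 in shKDM3B cells, beside 25.9 and 42.2% of all genes. The median was -0.21 with ATRA in scramble cells and -0.24 in shKDM3B cells.

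The genes with the pattern most like that of MYC over the 8 libraries, by Pearson correlation of log2 CPM among 8722 genes, were FGFBP3, ZDHHC9, MRPS27, ATP8B3 and SLC27A2 (r = 0.980 to 0.983). FGFBP3 had 16.3 and 24.4 CPM in scramble, 36.5 and 38.6 in shKDM3B, 5.03 and 5.26 in scramble+ATRA, and 7.90 and 7.34 in shKDM3B+ATRA. The lowest correlations with MYC were those of ZWINT, CYTH4 and MEGF9 (-0.984 to -0.979). Most like MXD1 were DHRS9, ITGA6, ADIPOR2, TBL2 and TMEM57 (0.977 to 0.989), and least like it were LMNB1, LMNA and SDC2 (-0.989 to -0.975). Within the network, MYC correlated most with MXI1 (0.96) and MGA (0.82), MXD1 most with MLX (0.90), and MYC with MXD1 at -0.62. The 8 points are 4 pairs of replicates that share a condition, so these values are a description of the pattern.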

How the data were processed

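RNA-seq counts of 8 NB4 libraries were analysed, 2 in each of 4 groups taken from the sample titles. Per the methods and the submitters' processing notes, the authors aligned reads to hg38 with HISAT2 and counted read pairs per gene with HTSeq. The deposited values are raw counts, 1 file per library, with 5 summary lines that were left out of library sizes and tests. Use of strand in counting is not given in the sources used here. Untreated files list 56470 names and ATRA files 56609, of which 37526 are shared. Comparisons across ATRA and normalized levels used the shared names.

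Each pair of groups was fitted with edgeR 4.0.16 in R 4.3.3 (filterByExpr, TMM, quasi-likelihood F test), with Benjamini-Hochberg adjustment over all genes of the fit. The call rule, P under 0.05 and at least 1.5-fold, is that of the methods. The standard error is the log2 fold change divided by the square root of F. The authors used DESeq2, run here (1.42.0) as an alternative. Other alternatives were the scaling, the low-count filter, the likelihood ratio test, adjusted P-values, 1 fit over all 8 libraries, a replicate block and each library left out. Adjusted P-values with the block, the ratios without MXD3 or by union exon length, and the list counts without either scramble+ATRA library were added after seeing the data. Depth was 9708739 to 33017787 pairs per library, and intervals cover counting error only, as reads carry no molecular identifiers. Fits were tested on simulated data with 200 genes changed 3-fold.

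The members and lists were chosen with earlier results of these data known. All network genes are reported. Of each other list, up to 2 with the largest rise and 2 with the largest fall among those called are named, and the cell type markers are given by their sums. Similar genes are the 5 highest and 3 lowest by r among genes with a mean of at least 10 CPM. Genes were matched by symbol to GENCODE v44 on hg38, and promoters are from RefSeq (GRCh38.p14). Tables were handled with Python 3.11.15 and pandas 2.3.3.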

Additional observations from a re-analysis of the deposited data

Results flagged for a closer look

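The response to ATRA differed between shKDM3B and scramble cells for MXD1 and MXI1 at an unadjusted P under 0.05 in the interaction test over 8 libraries. Both shKDM3B+ATRA libraries, but of scramble+ATRA only replicate 2, had many pairs outside genes. This difference and that split therefore cannot be fully told apart. For MXD1 the response on the log2 scale was -0.64 in shKDM3B minus scramble, and for MXI1 it was -0.55. Neither passed Benjamini-Hochberg adjustment of edgeR's quasi-likelihood test, in which both adjusted p-values were 1.00. Over the 8 fits that left out a library, the MXD1 value ranged from -0.73 to -0.55 and that of MXI1 from -0.61 to -0.47. MXD1 was called in 6 of these 8 fits. In both genes the ATRA groups overlapped and the untreated groups did not.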

How the results depend on the processing

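With 2 libraries per group, and a split of the ATRA libraries by pairs outside genes, adjusted P-values and single libraries moved the calls most. Adjustment left 0 of 3 network genes and 3 of 971 genes called between shKDM3B and scramble, 0 of 969 genes with ATRA, 1 of 4 network genes and 1604 of 3213 genes for ATRA in scramble cells, and 0 network genes and 0 of 540 genes in the interaction. The likelihood ratio test called 641 genes between shKDM3B and scramble with ATRA. In the interaction, library size alone called 0 network genes, and no low-count filter called 2 network genes and 941 genes. The replicate numbers could not be shown to pair the libraries, since only 2 pairs exist. The correlation across genes of the distance from the group mean between libraries with a shared number was 0.389, 0.0261, -0.0731 and 0.183 for shKDM3B against scramble, the same with ATRA, and ATRA in scramble and in shKDM3B cells. With the replicate block, 1242, 525, 2881 and 5445 genes were called in these comparisons and 538 in the interaction, and 3, 0, 4, 5 and 1 network genes, as without the block. Adjusted P-values under the block left 780, 0, 1394, 5312 and 0 genes, and 3, 0, 1, 5 and 0 network genes. With each library left out, network genes called ranged from 1 to 5, 0 to 2, 1 to 5, 4 to 5 and 0 to 2 in the same order, and all genes from 943 to 1650, 134 to 5360, 1462 to 5142, 4953 to 5866 and 285 to 2432. Of these fits, the pairwise ones have 1 residual degree of freedom and take the lone library to vary like the other group. Those of the interaction have more and take it to vary like the other groups.

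Of 486 member values under the other alternatives, 4 changed direction, all of MAX with ATRA in scramble cells (library size -0.072, upper quartile -0.041, no filter -0.028, 1 fit over all libraries -0.012). With a library left out, 16 of 216 values changed direction, all of uncalled differences. The ranges were -0.33 to 0.25 for MNT between shKDM3B and scramble, and with ATRA -0.34 to 2.69 for MXD3, -0.73 to 0.19 for MNT, -0.050 to 0.13 for MXD4, -0.059 to 0.70 for MGA, -0.017 to 0.16 for MXI1 and -0.094 to 0.0067 for MXD1. For MAX with ATRA in scramble cells the range was -0.17 to 0.20, for MXD4 with ATRA in shKDM3B cells -0.30 to 0.13, and in the interaction -0.47 to 0.29 for MGA and -0.67 to 0.25 for MNT. The cause was not tested. No scaling moved the median of all genes by over 0.1. Depth limits MYCN, MYCL, MLXIPL and the low levels of CDKN1A.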
